A study of Mus musculus with 6 samples.

Results

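The SCL complex and its erythroid activator partners were followed as 8 genes, Tal1, Lyl1, Lmo2, Ldb1, Cbfa2t3, Klf1, Gfi1b and Nfe2, taken by symbol from the 24815 genes in each file. All 8 matched 1 Ensembl identifier each and passed the filter on low counts. RNA sequencing compared common myeloid progenitors from C57BL/6 mouse fetal livers at embryonic stage E13.5. The mutant group held 3 libraries (C, D and Q) from embryos with both copies of the Gata2 -77 enhancer deleted (-77-/-), and the wild-type group held 3 (A, F and L) with the enhancer intact. Both genotypes went through 1 sort, which kept c-Kit+ CD34+ Sca-1- cells with low Fc receptor and removed cells bearing markers of mature lineages, CD41 or CD48. The labels do not say how the deletion was made or whether the libraries came from separate embryos, so p-values measure the spread between these libraries.

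TAL1 (also called SCL) and its paralog LYL1 are basic helix-loop-helix proteins that bind E-box DNA together with an E protein. LMO2 and LDB1 carry no DNA-binding domain and hold the complex together: LMO2 bridges TAL1 to a GATA factor, and LDB1 binds LMO2 and itself, which can bring distant enhancers to promoters. CBFA2T3 (ETO2) is a corepressor that joins this complex. KLF1, GFI1B and NFE2 are zinc finger or leucine zipper factors that act beside it at erythroid and megakaryocytic genes, and GATA2 and GATA1 are its GATA partners in early and in committed cells.

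Mutant library C stood apart, so the fitted changes are given with and without it. Depth ran from 14800563 to 30596279 expected counts in mutant libraries and from 14473913 to 21509720 in wild-type libraries. Correlations of log2 CPM were 0.880 to 0.923 between mutant C and the others and 0.974 to 0.989 among the other 5. Weighting each gene's length by its counts gave a mean of 1795 bases in mutant C, 2826 and 2998 in Q and D, and 2951 to 3113 in wild type. Gata2 itself had 8.92, 16.5 and 17.8 CPM in mutants C, D and Q, against 78.6, 57.4 and 63.9 in wild types A, F and L. CPM here are read counts scaled by library size multiplied by a TMM factor. That factor was 0.614 in mutant C and 1.06 to 1.17 in the other 5 libraries. CPM summed over all genes thus came to 1629984 in mutant C, against 855238 to 948415 in the other 5. Levels and marker sums in CPM are therefore not shares of equal totals, and those of mutant C carry its higher total.

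The sequences just upstream of 4 members are shown because these are the members whose levels did not overlap between genotypes and because they share an arrangement of bases. RefSeq start windows (build GRCm38.p6, 250 bases before to 50 after a start) matched 6 of the 8 members with 10 windows, and the matches are for Tal1, Lyl1, Ldb1, Cbfa2t3, Klf1 and Gfi1b. Each sequence is written 5′ to 3′ on the gene's own strand. Capitals mark the letters AGATAA (also with T in the first place or G in the last), which GATA factors are known to bind, and the letters CTG followed after any 8 or 9 bases by GATA, the spacing known from joint binding of TAL1 and a GATA factor. Both strands were searched, and in Klf1, Gfi1b and Cbfa2t3 the matches to both motifs overlap.
Klf1, chr8:84901732-84902031, plus strand: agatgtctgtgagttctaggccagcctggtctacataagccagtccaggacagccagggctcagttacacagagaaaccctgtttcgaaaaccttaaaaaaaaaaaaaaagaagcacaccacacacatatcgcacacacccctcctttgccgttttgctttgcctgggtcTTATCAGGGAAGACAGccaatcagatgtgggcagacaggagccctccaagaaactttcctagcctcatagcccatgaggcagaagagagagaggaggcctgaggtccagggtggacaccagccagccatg
Gfi1b, chr2:28621933-28622232, minus strand: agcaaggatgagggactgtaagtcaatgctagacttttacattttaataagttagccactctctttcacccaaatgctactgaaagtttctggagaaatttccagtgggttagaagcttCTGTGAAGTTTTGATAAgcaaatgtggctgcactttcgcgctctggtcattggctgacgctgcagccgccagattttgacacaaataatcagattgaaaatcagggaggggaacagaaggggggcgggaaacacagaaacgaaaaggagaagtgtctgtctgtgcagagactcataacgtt
Tal1, chr4:115056176-115056475, plus strand: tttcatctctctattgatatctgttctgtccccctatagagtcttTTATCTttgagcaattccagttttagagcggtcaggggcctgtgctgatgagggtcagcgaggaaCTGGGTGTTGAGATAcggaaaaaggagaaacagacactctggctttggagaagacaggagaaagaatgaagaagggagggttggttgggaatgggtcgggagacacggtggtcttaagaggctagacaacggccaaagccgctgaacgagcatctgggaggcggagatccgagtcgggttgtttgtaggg
Cbfa2t3, chr8:122699060-122699359, minus strand: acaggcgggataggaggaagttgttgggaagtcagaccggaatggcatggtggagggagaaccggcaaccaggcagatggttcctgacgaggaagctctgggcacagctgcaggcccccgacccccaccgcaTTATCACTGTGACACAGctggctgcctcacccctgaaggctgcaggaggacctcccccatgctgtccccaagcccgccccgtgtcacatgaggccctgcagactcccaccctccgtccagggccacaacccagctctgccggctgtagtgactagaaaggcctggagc

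CTG before GATA was found in 4 of the 10 windows, 1 each for Klf1, Gfi1b, Tal1 and Cbfa2t3, and in 4.71% of 32544 windows of the same length over all genes. The GATA letters were in 5 of the 10 windows, of Tal1, Ldb1, Cbfa2t3, Klf1 and Gfi1b, and in 29.6% of all windows. The Klf1 match to TGATAA lies on the opposite strand and begins 80 bases before the start, and the Gfi1b match begins 120 bases before it. CANNTG, the E-box, was in 7 windows (72.3% of all windows), CCNCNCCC, letters of the kind bound by Kruppel-like factors, was in 8 (49.7%), and TGAGTCA, the core of the NFE2 element, was in 0 (5.19%). A match describes the letters and is not a measured binding site, and a link between matches and lower levels was not tested.

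Of the 8 members, Klf1 and Gfi1b fell in the mutant once library C was set aside, while Lyl1, Lmo2, Ldb1 and Nfe2 overlapped between genotypes with all libraries. With all 6 libraries, 0 of 8 members reached the 0.05 threshold on the adjusted p in the quasi-likelihood test of edgeR, which 0.155% of all 12222 tested genes did (0.147% lower and 0.00818% higher). At an unadjusted p under 0.05 there were 3, Klf1, Gfi1b and Tal1, all lower (3.09% of all tested genes were lower at that level). DESeq2 called Klf1 alone, as a fall, where it called 0.925% of genes lower, and limma-voom called 0. Without mutant C, 2 of 8 fell and 0 rose, against 0.761% of 12614 tested genes that fell, 0.0793% that rose and 0.840% in either direction. At an unadjusted p under 0.05 there were then 4 lower members, against 6.02% of genes. In CPM, 4 members (Klf1, Gfi1b, Tal1 and Cbfa2t3) had all 3 mutant libraries below all 3 wild types, as did 11.4% of tested genes, and 0 had them all above, as did 10.6%. Mutants D and Q lay below all wild types for these 4 and Nfe2, and for 14.6% of genes. The fitted change was below 0 for 6 members with all libraries and 7 without mutant C, against 52.0% and 51.7% of genes. The members' median log2 change was -0.32 with all libraries and -0.24 without mutant C, against -0.02 and -0.01 for all tested genes. In bulk samples, fewer cells of a type and less RNA per cell cannot be told apart.

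**Figure D1:**
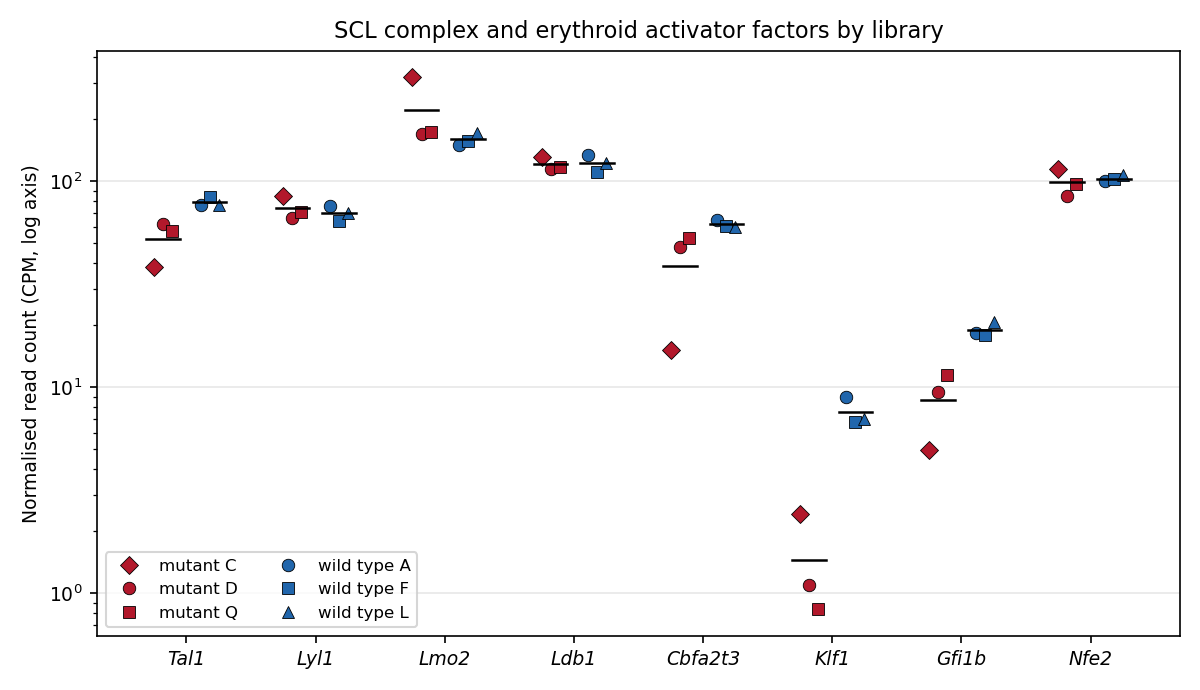
Normalised read counts (CPM, log axis) of the 8 genes in the 3 mutant libraries (red, left of each pair) and the 3 wild-type libraries (blue, right), with a line at each group's mean. Klf1 lies between 0.837 and 2.42 CPM in the mutant and between 6.81 and 8.99 in wild type, and mutant C (diamond) lies farthest from mutants D and Q for Cbfa2t3, Klf1 and Gfi1b.

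Tal1 encodes the basic helix-loop-helix protein after which the complex is named. Its gene (ENSMUSG00000028717) occupies 115056426 to 115071755 of chromosome 4, plus strand, in mm10, the build of all positions given here. Tal1 had 38.1, 61.9 and 57.2 CPM in mutants C, D and Q, against 77.0, 83.7 and 76.3 CPM in wild types A, F and L. Every mutant library was below every wild-type library, and mutant C was the lowest of the 6. The means were 52.4 ± 12.6 CPM in the mutant and 79.0 ± 4.07 CPM in wild type (SD, n = 3 each). The log2 change was -0.59 with a standard error of 0.21 (edgeR adjusted p = 0.58), and -0.42 with a standard error of 0.08 without mutant C (adjusted p = 0.090). Neither value passed the threshold over all genes.

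Lyl1, the paralog of Tal1 that can stand in for it in progenitors, had overlapping levels. The gene (ENSMUSG00000034041) occupies 84701457 to 84704715 of chromosome 8, plus strand. It had 84.6, 66.2 and 70.5 CPM in mutants C, D and Q, against 75.7, 63.7 and 70.0 CPM in wild types A, F and L. The log2 change was 0.08 with a standard error of 0.17 (adjusted p = 0.79), and -0.04 with a standard error of 0.09 without mutant C (adjusted p = 0.90), so its sign turned with that library.

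Lmo2, the LIM-only bridge of the complex, was the most abundant member in every library. Its gene (ENSMUSG00000032698) occupies 103957986 to 103981878 of chromosome 2, plus strand. It had 319, 169 and 173 CPM in mutants C, D and Q, against 150, 157 and 172 CPM in wild types A, F and L. Mutant C stood above all other libraries, while mutants D and Q lay at or near the top of the wild-type range. The log2 change was 0.47 with a standard error of 0.29 (adjusted p = 0.58), and 0.10 with a standard error of 0.08 without mutant C (adjusted p = 0.70). Neither passed the threshold.

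Ldb1, the self-associating partner of LMO2, differed by less than the spread between replicates. The gene (ENSMUSG00000025223) occupies 46031570 to 46045214 of chromosome 19, minus strand. It had 131, 115 and 117 CPM in mutants C, D and Q, against 134, 111 and 122 CPM in wild types A, F and L, which is 121 ± 8.84 CPM in the mutant and 122 ± 11.7 CPM in wild type (SD, n = 3 each). The log2 change was -0.02 with a standard error of 0.16 (adjusted p = 0.96), and -0.09 with a standard error of 0.10 without mutant C (adjusted p = 0.78).

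Cbfa2t3, the corepressor of the complex, had a wide spread among mutant libraries. Its gene (ENSMUSG00000006362) occupies 122625141 to 122699109 of chromosome 8, minus strand. It had 15.2, 47.7 and 52.8 CPM in mutants C, D and Q, against 65.0, 60.3 and 59.8 CPM in wild types A, F and L. The groups did not overlap, and mutant C was far below mutants D and Q. The log2 change was -0.67 with a standard error of 0.43 (adjusted p = 0.58), and -0.30 with a standard error of 0.08 without mutant C (adjusted p = 0.24). Neither passed the threshold over all genes.

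Klf1, the Kruppel-like activator of globin and red cell membrane genes, had the largest fitted change of the 8. The gene (ENSMUSG00000054191) occupies 84901928 to 84905291 of chromosome 8, plus strand. It had 2.42, 1.1 and 0.837 CPM in mutants C, D and Q, which rest on 22, 23 and 27 reads, against 8.99, 6.81 and 6.99 CPM in wild types A, F and L, which rest on 226, 108 and 118 reads. The highest mutant library was below the lowest wild-type library. The means were 1.45 ± 0.850 CPM in the mutant and 7.59 ± 1.21 CPM in wild type (SD, n = 3 each). Klf1 was 5.61-fold lower with all libraries (log2 change -2.49, standard error 0.42, adjusted p = 0.15). Without mutant C it fell 7.99-fold (log2 change -3.0, standard error 0.26, adjusted p = 0.0035).

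Gfi1b, a zinc finger repressor needed for red cell and platelet formation that recruits the LSD1 demethylase, was lower in every mutant library. Its gene (ENSMUSG00000026815) occupies 28609450 to 28621982 of chromosome 2, minus strand. It had 4.96, 9.47 and 11.5 CPM in mutants C, D and Q, against 18.4, 17.9 and 20.8 CPM in wild types A, F and L. The means were 8.65 ± 3.36 CPM in the mutant and 19.1 ± 1.56 CPM in wild type (SD, n = 3 each), and the groups did not overlap. The log2 change was -1.12 with a standard error of 0.31 (adjusted p = 0.58). Without mutant C Gfi1b fell 1.82-fold (log2 change -0.86, standard error 0.13, adjusted p = 0.035).

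Nfe2, the large subunit of a leucine zipper factor that pairs with small MAF proteins and is needed for platelet release, overlapped between genotypes in CPM. The gene (ENSMUSG00000058794) occupies 103248212 to 103258403 of chromosome 15, minus strand. It had 115, 84.5 and 97.2 CPM in mutants C, D and Q, against 99.8, 102 and 107 CPM in wild types A, F and L. Mutant C was the highest of the 6 libraries, while mutants D and Q were below all 3 wild types. The log2 change was -0.06 with a standard error of 0.17 (adjusted p = 0.85), and -0.18 with a standard error of 0.09 without mutant C (adjusted p = 0.51).

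**Figure D2:**
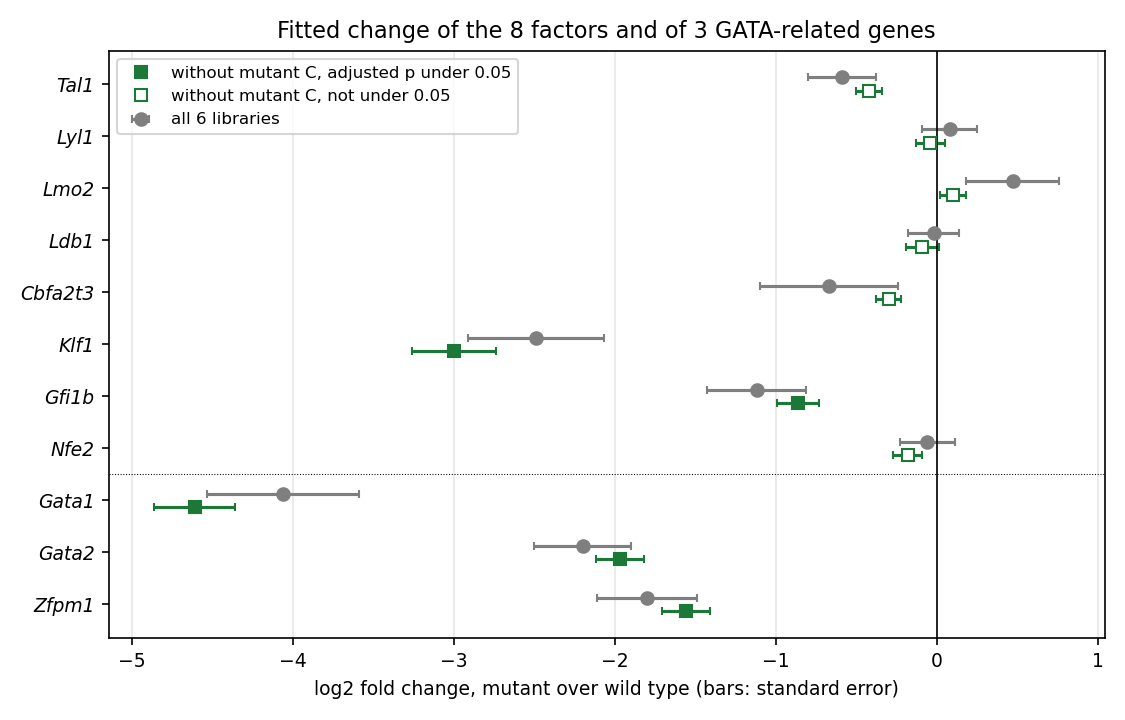
Fitted log2 change, mutant over wild type, with its standard error, for the 8 genes and for Gata1, Gata2 and Zfpm1, with all 6 libraries (grey circles) and without mutant C (green squares, filled where the adjusted p is under 0.05). Klf1 at -3.0 and Gfi1b at -0.86 are the filled squares among the 8, and the standard errors are smaller without mutant C for all 8.

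The level of each member in mutant C was set against mutants D and Q, beside genes of like length. Over all tested genes of 1000 to 2000 bases the median level in mutant C was 170% of the mean of mutants D and Q, with quartiles of 122% and 227%. For genes over 4000 bases the median was 47.8%, with quartiles of 37.0% and 63.2%. Lmo2 (1477 bases), Lyl1 (1800 bases) and Nfe2 (1447 bases) stood at 186%, 124% and 126%, within the quartiles of their length class. Ldb1 (1810 bases) was just below them at 113%, and Tal1 (4034 bases) was just above those of the longest class at 64.0%. Gfi1b, with 1708 bases, stood at 47.2% in mutant C, below the lower quartile of its class. Cbfa2t3, with 3944 bases, stood at 30.2%, against a median of 73.1% and quartiles of 55.7% and 94.6% for genes of 3000 to 4000 bases. Klf1 (1534 bases) stood at 250%, above the upper quartile, on the 22 reads given above.

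**Figure D3:**
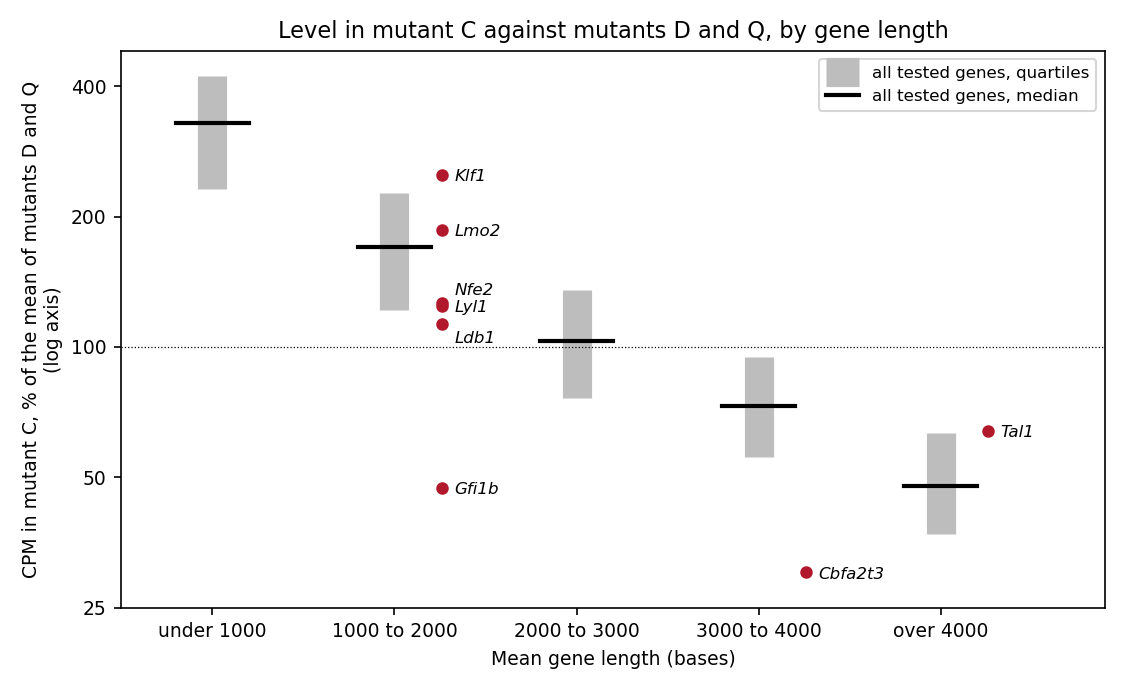
Level in mutant C as a percentage of the mean of mutants D and Q (log axis) by mean gene length, with the quartiles (grey bars) and median (black lines) of all tested genes and the 8 members (red points). Gfi1b at 47.2% and Cbfa2t3 at 30.2% lie below the grey bars of their length classes.

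The fit was repeated with each library corrected for its own dependence on gene length. In that fit Klf1 fell, with a log2 change of -2.84 (edgeR adjusted p = 0.012), and the other 7 did not pass. Of all 12222 tested genes, 54 passed in that fit, 50 lower and 4 higher. Lmo2 came to 0.08, against 0.47 without the correction, and Tal1 to -0.37 (adjusted p = 0.20). Gfi1b came to -1.25 (adjusted p = 0.47) and Cbfa2t3 to -0.52 (adjusted p = 0.53). Nfe2 came to -0.38, against -0.06 without the correction (adjusted p = 0.53), Ldb1 to -0.21 and Lyl1 to -0.13.

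Per length, the members spanned more than an order of magnitude in wild type. TPM, the deposited transcript level corrected for length, is used here to compare genes with each other. Lmo2 had 140, 222 and 201 TPM in mutants C, D and Q, against 224, 207 and 221 in wild types A, F and L. It ranked above the other members in all 6 libraries. Nfe2 and Ldb1 came next and exchanged places between libraries, with 93.8 ± 34.7 and 93.7 ± 39.9 TPM in the mutant and 141 ± 8.45 and 135 ± 21.2 TPM in wild type (SD, n = 3 each). Lyl1 followed in every library, with 56.1 ± 22.1 TPM in the mutant and 77.9 ± 12.3 in wild type.

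Tal1, Cbfa2t3, Gfi1b and Klf1 took the lower places in the same order in all 6 libraries. Tal1 had 6.21, 29.0 and 23.5 TPM in mutants C, D and Q, against 41.5, 39.5 and 35.4 in wild types A, F and L. Cbfa2t3 had 2.49, 23.1 and 22.7 TPM in those mutants, against 35.6, 29.1 and 28.3 in those wild types. Gfi1b had 1.90, 10.5 and 11.6 TPM in the mutants, against 23.6, 20.5 and 23.1 in the wild types. Klf1, at the bottom, had 1.04, 1.38 and 0.940 TPM in the mutants, against 12.8, 8.61 and 8.65 in the wild types. In wild type the means of these 4 were 38.8 ± 3.11, 31.0 ± 3.98, 22.4 ± 1.65 and 10 ± 2.42 TPM (SD, n = 3), in that order.

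In TPM 5 of 8 members had all mutant libraries below all wild types, the 4 seen in CPM and Nfe2, which had 53.8, 111 and 116 TPM in mutants C, D and Q, against 151, 134 and 139 in wild types A, F and L. Of all tested genes, 24.0% did the same in TPM. The median change of all tested genes was -0.50 on the log2(TPM + 1) scale, and on that scale Nfe2 was at -0.67, so its TPM value lay close to that of the typical gene.

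**Figure D4:**
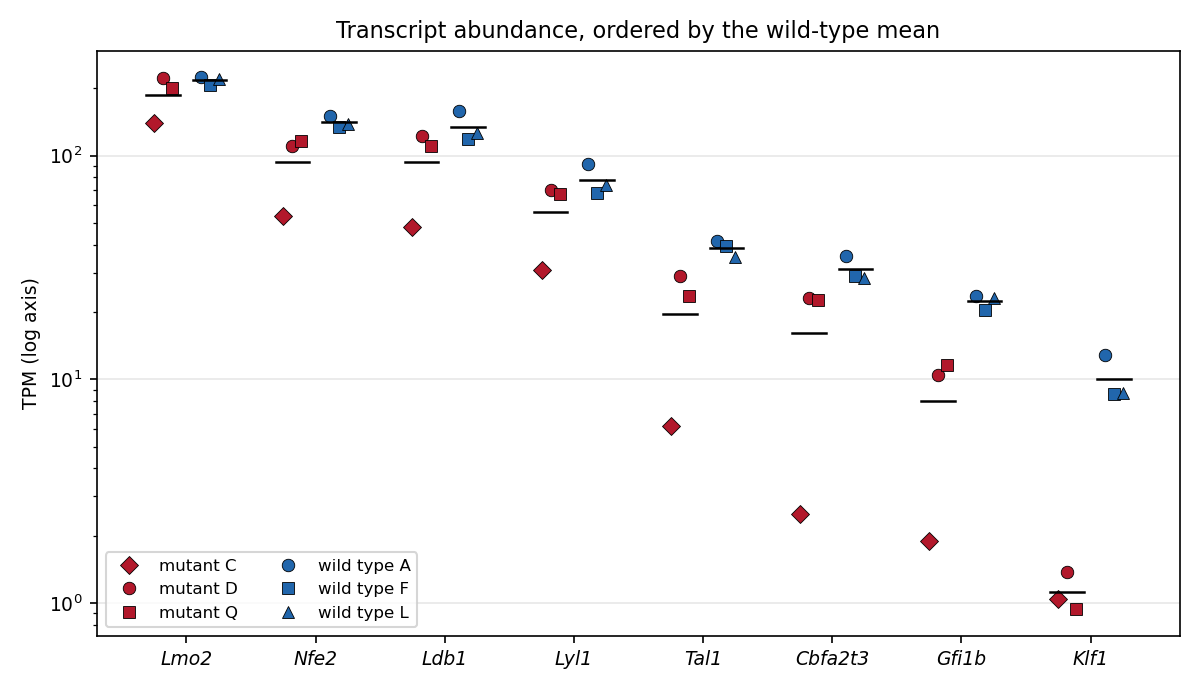
TPM (log axis) of the 8 genes, ordered by the wild-type mean, in mutant libraries (red, left) and wild-type libraries (blue, right), with a line at each group's mean. The order runs from Lmo2 at 217 TPM to Klf1 at 10 TPM in wild type, and mutant C (diamond) is the lowest of the 6 libraries for every gene but Klf1.

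The share of each member in the summed TPM of the 8 does not depend on the scaling between libraries, although it does depend on length effects within them. Klf1 took 0.170% to 0.366% of the sum in the mutant and 1.32% to 1.74% in wild type. Gfi1b took 0.669% to 2.10% in the mutant and 3.19% to 3.52% in wild type. Tal1 took 2.19% to 4.92% in the mutant and 5.40% to 6.31% in wild type, and Cbfa2t3 0.877% to 4.09% in the mutant and 4.32% to 4.82% in wild type. The shares of these 4 did not overlap between genotypes. Lmo2 took 36.3% to 49.2% in the mutant and 30.3% to 33.8% in wild type, so its share was higher in every mutant library, in a sum where lower shares of some members raise those of others. Lyl1 took 10.8% to 12.1% in the mutant and 10.9% to 12.4% in wild type, and its shares overlapped.

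The deposited gene length is weighted by the transcripts in use, so it shows shifts between isoforms of unlike length. It varied little for the members. Tal1, with 4 annotated transcripts, ranged from 3964 to 4114 bases over the 6 libraries, and Lmo2, with 7, from 1467 to 1500 bases. Nfe2, with 10 transcripts, was at 1400 bases in mutant C and between 1442 and 1466 bases in the other libraries. Lyl1 and Klf1 have 1 transcript each in the files.

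Among the other proteins of the complex, the GATA partners fell without mutant C. Of 18 listed partners 16 were tested. With all libraries 0 passed by edgeR (4 at an unadjusted p under 0.05, all lower, against 3.09% of all tested genes). Without mutant C 3 fell (0.761% of all tested genes did) and 0 rose (0.0793%). They were Gata1, Gata2 and Zfpm1, which encodes the GATA cofactor FOG1. Gata1 had 2.86, 0.813 and 1.18 CPM in mutants C, D and Q, against 29.6, 20.2 and 24.5 in wild types A, F and L (log2 change -4.06 with all libraries, edgeR adjusted p = 0.054, and -4.61 when mutant C was left out, adjusted p = 6.6e-04). Zfpm1 had 8.37, 16.5 and 17.3 CPM in those mutants, against 59.8, 44.7 and 44.0 in those wild types (log2 change -1.80 with all libraries and -1.56 without mutant C). Gata2, whose CPM are given above, had log2 changes of -2.20 with all libraries and -1.97 without mutant C. The median log2 change of the partners was -0.26 with all libraries and -0.08 without mutant C. Tcf3, Tcf12 and Tcf4, which encode the E proteins that pair with TAL1, were chosen after their values were seen and had log2 changes of -0.15, -0.26 and -0.26 with all libraries (standard errors of 0.19, 0.28 and 0.28), and of -0.01, -0.00 and -0.01 without mutant C (0.08, 0.07 and 0.07).

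The cofactors of GFI1B and of the ETO corepressors gave no call. Of 17 tested, 0 passed by edgeR with all libraries or without mutant C, with 0 and 3 at an unadjusted p under 0.05. The 3 were lower, as were 6.02% of all tested genes at that level without mutant C. Gfi1, the paralog of Gfi1b that acts in lymphoid and granulocytic cells, had 10, 9.61 and 11.6 CPM in mutants C, D and Q, against 20.0, 13 and 12.5 in wild types A, F and L (log2 change -0.55, adjusted p = 0.58; -0.54 with C left out). Gse1, a subunit of the LSD1 and CoREST complex, had 10.2, 40.5 and 39.9 CPM in those mutants, against 74.3, 53.3 and 55.6 in those wild types (log2 change -1.01, adjusted p = 0.58; -0.62 with C left out). Both were lower in every mutant library, and neither passed.

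Partners of NFE2 and relatives of KLF1 also gave no call by edgeR in either fit. Of 8 small MAF and CNC factors 7 were tested, with 0 at an unadjusted p under 0.05 in either fit and a median log2 change of -0.20 with all libraries and -0.06 without mutant C. Mafg, which encodes a small MAF partner of NFE2, had a log2 change of -0.34 (adjusted p = 0.60), and Nfe2l1, a CNC relative of Nfe2, one of -0.37 (adjusted p = 0.60). Without mutant C these were -0.11 and -0.09. Of 16 other Kruppel-like factor genes 10 were tested, with 0 at an unadjusted p under 0.05 with all libraries and 1 without mutant C. That 1 was lower, as were 6.02% of all tested genes at that level. The fitted changes of the 10 ran from -0.54 to -0.09 with all libraries and from -0.26 to 0.07 without mutant C. Klf10 and Klf7, those with the smallest p, had log2 changes of -0.35 and -0.37 (adjusted p = 0.58 for both), and of -0.21 and -0.24 without mutant C.

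Among genes listed here as erythroid targets of KLF1 and the complex, every gene that passed the test fell. So did most genes that passed over all tested genes, 18 of 19 with all libraries and 96 of 106 without mutant C. All 36 listed genes were tested. With all libraries 4 fell and 0 rose, where 0.147% of all tested genes fell and 0.00818% rose. Without mutant C 8 fell and 0 rose, where 0.761% fell and 0.0793% rose. The median log2 change was -0.66 with all libraries and -1.15 without mutant C. The 4 were Slc14a1 (urea transporter), Hemgn (a nuclear protein of blood progenitors), Aqp1 (water channel) and Epor (erythropoietin receptor). Without mutant C Rhag, the Rh-associated glycoprotein gene, fell 3.96-fold, and Ermap, which encodes an erythroid membrane protein, 3.34-fold. With all libraries they were 3.75-fold and 3.67-fold lower and did not pass. Car2, a carbonic anhydrase gene, had 103, 40.0 and 46.1 CPM in mutants C, D and Q, against 70.0, 84.0 and 88.5 in wild types A, F and L, and fell 1.88-fold without mutant C (adjusted p = 0.015), against 1.28-fold lower with all libraries (adjusted p = 0.62). Its relative Car1 had 0.220, 0 and 0 CPM in those mutants, against 5.17, 4.22 and 7.22 in those wild types.

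Globin transcripts of maturing red cells, another cell type that carries Klf1, Gfi1b and Tal1, differed by library. The summed CPM of 8 mature erythroid markers was 2201, 324 and 310 in mutants C, D and Q, against 636, 868 and 434 in wild types A, F and L. By level, Hba-a2 led with 793, 112 and 102 CPM in the mutants and 240, 324 and 150 in the wild types, followed by Hbb-bs and Hbb-bt. Of the 8 markers 0 passed by edgeR in either fit. At an unadjusted p under 0.05 there were 1 lower and 1 higher with all libraries, and 7 lower and 1 higher without mutant C, the fit in which Klf1 and Gfi1b passed. Of all tested genes, 3.09% were lower at that level with all libraries and 6.02% without mutant C. Higher were 209 of 12222 and 547 of 12614. The markers' median log2 change was 0.45 with all libraries and -1.14 without mutant C. The part of these cells in the fall of Klf1 and Gfi1b was not tested.

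Genes listed here as platelet targets of NFE2 and the complex fell where they passed the test, while Nfe2 itself gave no call. Most genes that passed over all tested genes also fell, 18 of 19 with all libraries and 96 of 106 without mutant C. Of 19 listed genes 17 were tested. With all libraries 4 fell (Mylk3, Itga2b, Treml1 and Gp5), against 0.147% of all tested genes, and 0 rose, against 0.00818%. Without mutant C 10 fell, against 0.761%, and 0 rose, against 0.0793%. The median log2 change was -1.47 with all libraries and -1.55 without mutant C. Rab27b, a small GTPase of platelet granules, had 6.06, 1.72 and 3.53 CPM in mutants C, D and Q, against 8.91, 11.6 and 9.95 in wild types A, F and L, and fell 3.79-fold without mutant C (adjusted p = 0.039). F2rl2, a thrombin receptor gene, fell 2.69-fold and Itgb3, the integrin beta chain that pairs with CD41, 1.63-fold without mutant C. F2r (thrombin receptor), Vwf (von Willebrand factor) and Gp1ba (platelet glycoprotein) were the other falls without mutant C, at 2.10-fold, 6.51-fold and 4.9-fold. With all libraries Rab27b, F2rl2, Itgb3, F2r, Vwf and Gp1ba were 2.77, 2.01, 1.91, 2.26, 5.88 and 4.84-fold lower and did not pass.

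Genes listed here as progenitor targets of the complex gave falls without mutant C only. All 17 were tested, with 0 calls by edgeR with all libraries. At an unadjusted p under 0.05, 5 were lower and 2 higher, where 3.09% of all tested genes were lower and 209 of 12222 higher. Without mutant C there were 4 falls on the adjusted p, against 0.761% of genes, and 0 rises, against 0.0793%. Tgfbr3, a TGF-beta coreceptor gene, fell 3.90-fold without mutant C, with 2.86, 4.92 and 5.46 CPM in mutants C, D and Q, against 21.7, 18.9 and 19.8 in wild types A, F and L (adjusted p = 0.0011). Myb, a progenitor transcription factor gene, fell 1.49-fold, Meis1, a homeobox gene, 1.42-fold, and Ikzf2, of the Ikaros family, 1.86-fold. With all libraries Tgfbr3, Myb, Meis1 and Ikzf2 were 4.48, 1.70, 1.61 and 2.38-fold lower and did not pass. The median log2 change was -0.51 with all libraries and -0.23 without mutant C. The target lists were drawn from general knowledge with earlier results of these data known, and their direction is not independent evidence.

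**Figure D5:**
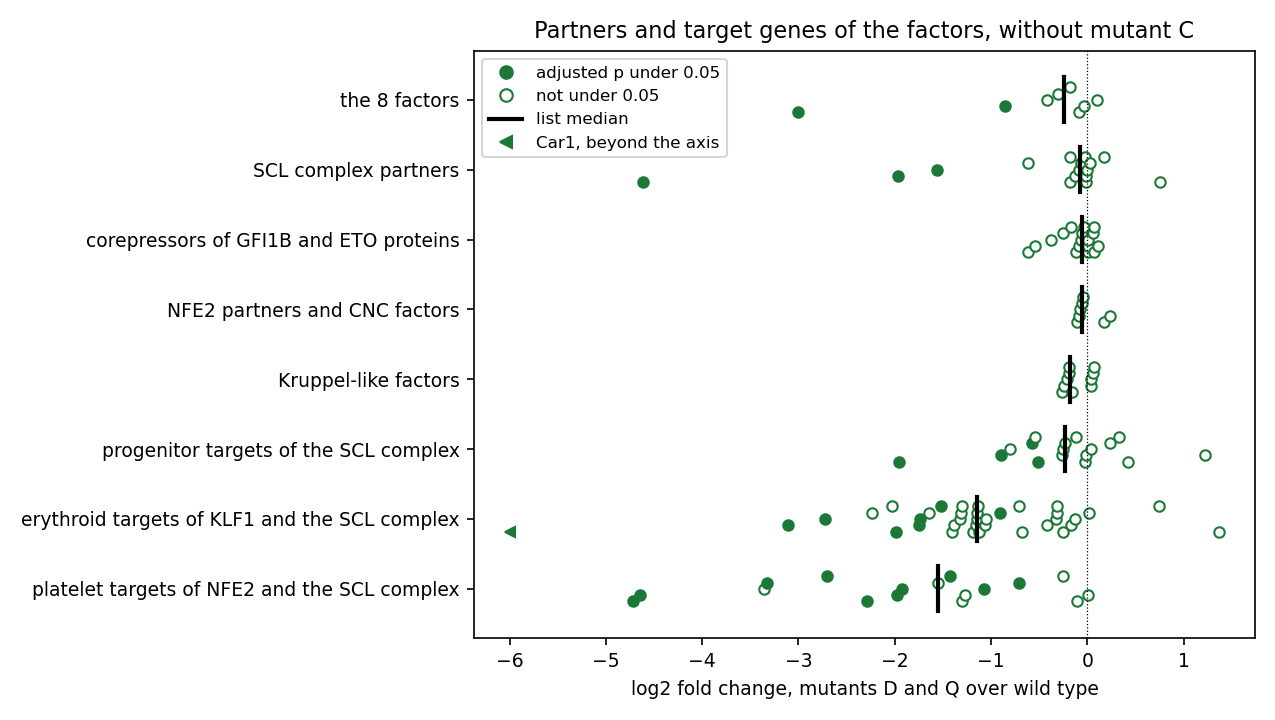
Fitted log2 change without mutant C for the tested genes of each list (circles, filled where the adjusted p is under 0.05) with the list median (black lines). The erythroid and platelet target lists have medians of -1.15 and -1.55, the 8 factors -0.24, and the Kruppel-like factors -0.18, while Car1, at 0 reads in mutants D and Q, is drawn at the edge of the axis.

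Markers of other cells were checked because Tal1, Lyl1 and Lmo2 are also active in endothelium. The summed CPM of 8 endothelial markers was 99.8, 135 and 132 in mutants C, D and Q, against 150, 146 and 154 in wild types A, F and L, and was thus lower in every mutant library. Single markers went both ways, with a median log2 change of -0.20 with all libraries and 0.00 without mutant C. The change was below 0 for 5 and 4 of the 8. In CPM Pecam1, Eng, Tek and Kdr were lower in every mutant library, as were 11.4% of tested genes. Emcn was higher in every mutant library, as were 10.6% of tested genes. It had 12.2, 5.98 and 6.23 CPM in mutants C, D and Q, against 3.94, 4.98 and 5.51 in wild types A, F and L. In TPM Emcn overlapped between genotypes. Of the 8 markers, 0 passed by edgeR in either fit. At an unadjusted p under 0.05 there were 2 in each fit, Pecam1 and Tek, all lower. Of all tested genes, 3.09% were lower at that level with all libraries and 6.02% without mutant C. The highest were Pecam1, Eng and Tie1, which blood progenitors also express, while Cdh5, which defines endothelium, had 0.441, 0.908 and 1.15 CPM in those mutants, against 0.835, 0.694 and 0.947 in those wild types. The part of such cells in the level of Tal1 was not tested.

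Hepatoblast transcripts summed to 214, 120 and 616 CPM over 10 markers in mutants C, D and Q, against 129, 91.2 and 68.4 CPM in wild types A, F and L, led by Afp, Alb and Dlk1. By edgeR 0 of the 10 passed in either fit, with 6 and 7 at an unadjusted p under 0.05, all higher. Of all tested genes, 209 of 12222 were higher at that level with all libraries and 547 of 12614 without mutant C. Macrophage markers summed to 182, 220 and 171 CPM in those mutants, against 184, 170 and 162 in those wild types, led by Csf1r, Cd68 and Adgre1, with Vsig4 at 0 in all 6, and 0 passed by edgeR in either fit, with 0 at an unadjusted p under 0.05. Progenitor markers were present throughout: Mpo, Cd34 and Kit led 6 genes summing to 3352, 4066 and 4022 CPM in the mutants and 4541, 3807 and 3655 in the wild types, with 0 calls in either fit (0 and 2 at an unadjusted p under 0.05). The 2 were Kit, lower, and Cd34, higher, with log2 changes of -0.23 and 0.33 without mutant C. At that level 6.02% of all tested genes were lower without mutant C, and 547 of 12614 were higher. In CPM Kit was lower and Cd34 higher in every mutant library, as were 11.4% and 10.6% of tested genes. Of 10 genes of the markers sorted against, 6 passed the filter on low counts. Cd48 and Itga2b had the highest mean CPM of them, and Cd3e was at 0 in all 6 libraries. Itga2b fell in both fits, whereas Cd48 was higher in every mutant library. Cd48 had 446, 122 and 150 CPM in mutants C, D and Q, against 90.1, 112 and 114 in wild types A, F and L. Its log2 change was 1.18 over the 6 libraries and 0.36 once C was dropped, and neither fit called it. The part of any of these cells in the members' levels was not tested.

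The likeness of other genes to each member was measured over the 6 libraries as the root mean square difference of log2 CPM after centring each gene on its mean, among 10441 other genes with at least 50 counts on average. The genes nearest to Klf1 were Slc14a1, Hdc (histidine decarboxylase) and Smim1, a small red cell membrane protein gene, at 0.25, 0.29 and 0.31. Those nearest to Gfi1b were Paqr8, P2ry1 (a platelet ADP receptor gene) and Prkg1, at 0.13, 0.14 and 0.15. Tal1 was nearest to Jak2, the kinase of the erythropoietin receptor, at 0.06, and then to Fads6 and Csgalnact1 at 0.08 and 0.09. Cbfa2t3 was nearest to Nbeal1, Ash1l and Prrc2b, at 0.07, 0.07 and 0.08.

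The members whose genotypes overlapped lay close to many genes. Lyl1 was nearest to Cep78, Btbd6 and Fads3 at 0.03 to 0.04, Lmo2 to Nudc, Dnlz and Ndufa10 at 0.02, Ldb1 to Sars2, Ptov1 and Esrra at 0.03 to 0.04, and Nfe2 to Pot1a, St3gal4 and Tom1l1 at 0.04 to 0.05. Among the members themselves Lyl1 and Ldb1 were closest at 0.07, and Gfi1b and Cbfa2t3 lay 0.29 apart. Klf1 was farthest from the rest, with 1.01 to its nearest member, Gfi1b. These distances take in the offset of mutant C as well as genotype.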

How the data were processed

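The authors' deposited files hold expected counts and TPM per Ensembl gene for each of 6 libraries, per the file headers, with a gene length that differs between libraries for genes with several transcripts. RSEM 1.2.18, Bowtie 1.1.1, CASAVA 1.8.2 and the mm10 build are listed in the submitters' processing notes. Whether counting used strand, and which annotation release, is not given in the sources used here. Symbols were looked up by Ensembl identifier (24448 of 24815 matched), and positions from GENCODE M21, which holds 98.0% of the files' transcripts. Reads shared with overlapping or near-identical genes may be split by RSEM.

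Expected counts were rounded, filtered with filterByExpr (minimum count 10), scaled by TMM and tested in R 4.3.3 with edgeR 4.0.16 (quasi-likelihood F test, Benjamini-Hochberg over all genes, threshold 0.05). Standard errors are the absolute log2 change over the square root of F. Alternatives were RLE scaling, a loess offset (span 0.5) on gene length per library, no filter, DESeq2 1.42.0, limma-voom and limma 3.58.1 on log2(TPM + 1) and log2(TPM + 0.1), each library left out in turn, and, chosen after seeing the data, the length offset without mutant C. The code was tested on simulated data. Libraries of a group differed by a chi-square per gene of at least 9.25, so no pair was treated as 1 sample.

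Members and lists were chosen with earlier results of these data known. The named genes are the members, Gata1, Gata2 and Zfpm1, list genes past the threshold (with all libraries or without mutant C) or else the 2 with the smallest p per list, the 3 genes most like each member, and the 3 most abundant markers per cell type, of which 1 is not reported here. Cdh5, Emcn, Kdr, Tek, Cd3e, Vsig4 and the E protein genes are outside this rule and were picked with their values known. Promoter sequences are RefSeq's.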

Additional observations from a re-analysis of the deposited data

How the results depend on the processing

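The count of genes past the threshold was 19 with all libraries by edgeR, 54 with the gene-length offset, 36 with no filter, 142 by DESeq2, 32 by limma-voom, 11 by limma on log2(TPM + 0.1), and 113 with the length offset and mutant C left out, an alternative chosen after seeing the data. With 1 library left out it ran from 0 to 106, where 106 is without mutant C and every other omission gave 0 by edgeR, with 294 to 1611 genes at an unadjusted p under 0.05. The count of members past the threshold was 0 with all libraries, 1 with the length offset and by DESeq2 (Klf1 in both), 2 with the length offset and mutant C left out, and ran from 0 to 2 with 1 library left out. Klf1 kept its sign in all 14 alternatives and passed at log2 changes of -2.84 (length offset), -2.45 (DESeq2) and -3.05 (length offset without mutant C), and it ran from -3.0 to -2.17 with 1 library left out. Gfi1b passed only without mutant C, and there also with the length offset (-0.90). It ran from -1.38 to -0.86 with 1 library left out. Tal1 and Cbfa2t3 stayed below 0 in all 14 alternatives and passed in none. Signs turned for members near 0. Ldb1 was 0.02 with RLE scaling and 0.02 by DESeq2, and ran from -0.09 to 0.06 with 1 library left out. Lyl1 was -0.13 with the length offset, -0.54 and -0.55 on log2(TPM + 1) and log2(TPM + 0.1), and -0.07 with the length offset without mutant C, and ran from -0.04 to 0.15. Lmo2 was -0.24 on both TPM scales, where the median of all genes was -0.50 and -0.63. Nfe2 ran from -0.18 to 0.05 with 1 library left out, and was -0.38 with the length offset (unadjusted p = 0.035) and -0.24 with that offset and mutant C left out (unadjusted p = 0.0084), passing the adjusted threshold in neither. The cause was not tested. Klf1 rests on 22 to 27 reads per mutant library, which limits its fold change. No paired analysis was possible because the replicate letters differ between the groups.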

Other observations

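Some genes of the target lists lay higher in CPM in every mutant library, against the direction of their lists, as did 10.6% of all tested genes. None passed the threshold by edgeR in either fit. These genes were chosen after their values were seen. In TPM Hbb-y was also higher in every mutant library, but Cd34, Cd24a, Cdkn1a and Nkx2-3 overlapped between genotypes. Cd34 had 323 TPM in mutant C, against 585, 654 and 638 TPM in wild types A, F and L. Cd34 had 1254, 998 and 1024 CPM in mutants C, D and Q, against 685, 862 and 861 CPM in wild types A, F and L (log2 change 0.44, adjusted p = 0.58; 0.33 with C left out). Cd24a, a surface glycoprotein gene of early erythroid and lymphoid cells, had 260, 126 and 162 CPM in mutants C, D and Q, against 71.6, 102 and 84.5 CPM in wild types A, F and L (log2 change 1.09, adjusted p = 0.58; 0.74 with C left out). Hbb-y, the embryonic beta-like globin gene, had 21.7, 3.11 and 2.39 CPM in those mutants, against 1.79, 0.378 and 0.829 CPM in those wild types (log2 change 3.07, and 1.37 without mutant C). Cdkn1a, a cyclin-dependent kinase inhibitor gene, had 11.6, 9.80 and 10.3 CPM in the mutants, against 8.63, 6.05 and 7.58 CPM in the wild types, and Nkx2-3, a homeobox gene, had 0.881, 0.956 and 0.868 CPM in the mutants, against 0.557, 0.252 and 0.296 CPM in the wild types.

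Lmo4, a LIM-only relative of Lmo2, was lower in every mutant library, with 45.0, 36.0 and 35.7 CPM in mutants C, D and Q, against 66.1, 47.3 and 50 CPM in wild types A, F and L. It did not pass the threshold by edgeR, with a log2 change of -0.49 for all libraries (adjusted p = 0.58) or -0.62 with mutant C left out (adjusted p = 0.17).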
